A study of Mus musculus with 4 samples.

Results

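Oligodendrocyte precursor cells (OPCs) are the dividing glial cells from which oligodendrocytes form, and 274 of 6281 hippocampal cell barcodes with at least 200 genes met the rule that defined them here. The rule used molecule counts (UMIs, unique molecular identifiers that mark each captured RNA molecule). It asked for 3 or more UMIs of Pdgfra, Cspg4 and C1ql1 together, fewer than 3 UMIs of Gpr17, and no more than 2 UMIs of P2ry12, Cx3cr1, Mog, Opalin, Cldn5 and Vtn together. Levels of these 10 genes in the OPCs follow from that choice, so they are given as a description and were left out of the counts between classes. Of the 10, 4 passed the count filter and were among the genes tested between genotypes (Pdgfra, Cspg4, C1ql1 and Gpr17), and none was called. The study asked how a mouse model of Down syndrome differs from littermates in behavior, neural activity and brain cells, and this experiment measured RNA in dissociated hippocampal cells of 4 mice, with 1 droplet library per mouse.

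The groups were 2 male Dp(10)2Yey mice and 2 male wild-type (WT) littermates, all aged 3 months and on a C57BL/6J background. Dp(10)2Yey mice were hemizygous for a duplication of the part of mouse chromosome 10 from Prmt2 through Pdxk, which corresponds to a part of human chromosome 21. They therefore model an extra copy of that part alone and not of the whole human chromosome. With replicate 1 first, the libraries held 3002546 and 6848466 UMIs for WT and 5112759 and 9612011 UMIs for Dp(10)2Yey. Cells were prepared on 2 days, with a mouse of each genotype on each day, and the labels do not say which library belongs to which day. The 2 animals of each genotype are the replicates, and cells of 1 animal are not.

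OPCs tile the adult brain, respond to platelet-derived growth factor through the receptor PDGFRA, and carry the chondroitin sulfate proteoglycan NG2, the product of Cspg4, on their surface. They receive synaptic input from neurons, divide throughout life, and can leave the cell cycle to differentiate. A differentiating cell passes through a short stage marked by the receptor GPR17 before it makes myelin proteins such as MBP.

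OPCs were 3.52% of the cells in WT replicate 1 (36 of 1022, 95% Clopper-Pearson interval 2.48% to 4.84%) and 4.74% in WT replicate 2 (80 of 1686, 3.78% to 5.87%). They were 5.09% in Dp(10)2Yey replicate 1 (69 of 1355, 3.98% to 6.40%) and 4.01% in Dp(10)2Yey replicate 2 (89 of 2218, 3.23% to 4.91%). The intervals overlapped, and the groups did too: the highest and the next to lowest share were in Dp(10)2Yey mice. All intervals and floors given here cover counting error only. OPCs held a median of 4412.5 UMIs (508 to 19396) and 2341 genes (279 to 5700). Median UMIs were 3689.5 and 4567.5 in WT replicates 1 and 2 and 4473 and 4530 in Dp(10)2Yey replicates 1 and 2. WT replicate 1 therefore had the fewest and the shallowest OPCs, with 122173 UMIs summed over them. The sum was 359165 in WT replicate 2, and it was 288488 and 418344 in the Dp(10)2Yey pair. A count of 3 UMIs, the floor below which a gene at 0 cannot be told from a low level, is 24.6 and 8.35 CPM in the WT pair and 10.4 and 7.17 in the Dp(10)2Yey pair, where CPM stands for UMIs per 1000000 UMIs of the class in that library. Dp(10)2Yey replicate 2 stood apart in the median share of mitochondrial UMIs, 2.63% against 4.50% in its partner and 4.53% and 4.82% in the WT pair. Scrublet called 54 of the 6281 cells doublets, of which 2 were OPCs, both in WT replicate 2. Libraries shared 8 barcode sequences, 1 of them carried by an OPC, and no OPC shared its barcode with another OPC.

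At the limits of the rule, the 13 cells with a sum of 3 UMIs of Pdgfra, Cspg4 and C1ql1 had a median of 1622 UMIs, and 10 of them held a UMI of Lhfpl3, Tnr or Vcan, which the rule did not use. Their Lhfpl3 level was 842 CPM. The 20 cells left out with a sum of 2 had a median of 909.5 UMIs, 14 of them held such a UMI, and their Lhfpl3 level was 117. Most OPCs lay far from this limit, with a median sum of 13 UMIs (3 to 32) and 196 cells at 10 or more. Of the other-type genes, 268 OPCs held 0 UMIs, 5 held 1 and 1 held 2. The 15 cells left out with 3 or more included 7 with a UMI of Lhfpl3, Tnr or Vcan.

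The 3 identity genes that the rule did not use were present in OPCs and nearly absent from mature oligodendrocytes and astrocytes. Lhfpl3 encodes a tetraspan membrane protein, Tnr the matrix glycoprotein tenascin-R, and Vcan the chondroitin sulfate proteoglycan versican. All 3 were detected in 195 OPCs (71.2%), 2 of them in 52 (19%), 1 in 21 (7.66%) and none in 6 (2.19%). The comparison cells were chosen by rules of the same kind: 112 Gpr17-positive cells (3 or more UMIs of Gpr17), 901 mature oligodendrocytes (Mog and Opalin), 609 astrocytes (Gja1 and Aqp4) and, as cells that should lack these genes, 2168 microglia (P2ry12 and Cx3cr1).

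Lhfpl3 (ENSMUSG00000106379, chr5:22746059-23275597, plus strand, GRCm38) stood at 1277 and 1139 CPM in the WT libraries and 1279 and 1281 in the Dp(10)2Yey libraries. WT replicate 1 and both Dp(10)2Yey libraries were nearly equal, and WT replicate 2 was lowest. Its mean over libraries was 1244 ± 70.2 (SD, n = 4 libraries) in OPCs and 882 ± 122 in Gpr17-positive cells, a log2 fold change of 0.49 ± 0.10 SE (edgeR adjusted p = 4.84e-04). Mature oligodendrocytes held 11 UMIs in all, and the log2 fold change of OPCs over them was 8.57. Astrocytes held 3 UMIs, a ratio of 1019 (95% counting interval 348 to 4945). A UMI of Lhfpl3 was found in 89.8% of OPCs and 0% of microglia, at median depths of 4412.5 and 3980 UMIs; thinned to 1000 UMIs per cell the shares were 66.5% and 0%.

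Tnr (ENSMUSG00000015829, chr1:159523769-159931729, plus strand) stood at 1129.5 and 1025 CPM in the WT libraries and 1102 and 916 in the Dp(10)2Yey libraries, and the genotypes overlapped. It was lower in OPCs than in Gpr17-positive cells, with means of 1043 ± 95.9 and 1382 ± 182 (log2 fold change -0.46 ± 0.10 SE, edgeR adjusted p = 0.00127), and higher than in mature oligodendrocytes (9.09) and astrocytes (6.16). Tnr UMIs were found in 90.1% of OPCs and 0.277% of microglia (52.1% and 0.0976% when thinned). Vcan (ENSMUSG00000021614, chr13:89655312-89742509, minus strand) stood at 769 and 626 CPM in the WT libraries and 586 and 519 in the Dp(10)2Yey libraries. Both WT values were above both Dp(10)2Yey values, with a genotype log2 fold change of -0.34 ± 0.19 SE that did not pass the test. No difference from Gpr17-positive cells was detected for Vcan (0.02 ± 0.12 SE, edgeR adjusted p = 0.971). Against mature oligodendrocytes, which held 1 UMI, the ratio was 2956 (95% counting interval 529 to 116925), and against astrocytes the log2 fold change was 4.79. Vcan UMIs were found in 79.2% of OPCs and 0.185% of microglia (43.2% and 0.0976% when thinned).

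Of the genes that chose the cells, Pdgfra (ENSMUSG00000029231, chr5:75152292-75198215, plus strand) stood at 1482 and 1442 CPM in the WT libraries and 1258 and 1419.9 in the Dp(10)2Yey libraries. Cspg4 (ENSMUSG00000032911, chr9:56865033-56899870, plus strand) stood at 630.3 and 484 CPM in the WT libraries and 607 and 423 in the Dp(10)2Yey libraries. C1ql1 (ENSMUSG00000045532, chr11:102939264-102946688, minus strand), which encodes a secreted synapse organizer, stood at 1244 and 1089 CPM in the WT libraries and 1234 and 1205 in the Dp(10)2Yey libraries. Pdgfra was lower in both Dp(10)2Yey libraries than in both WT libraries, and the genotypes overlapped in the other 2 genes. Pdgfra was found in 266 OPCs, 97.1%, and in 0.0923% of microglia (66.5% and 0% when thinned). As a description, the genotype log2 fold changes of these 3 genes were -0.14, -0.11 and 0.05. Those of Lhfpl3 (0.07) and Tnr (-0.11) did not pass the test.

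**Figure D1:**
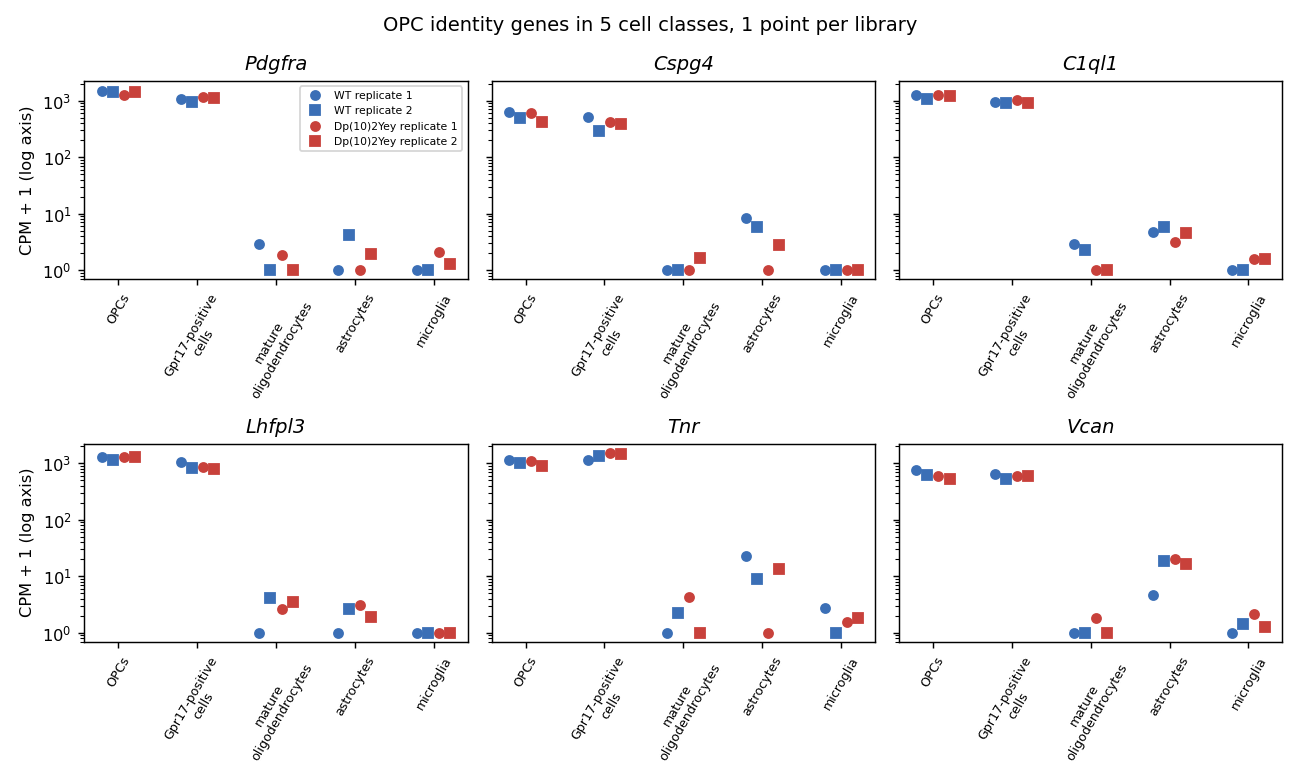
Levels of the 6 OPC identity genes in 5 classes of cells, as CPM plus 1 on a log axis, with 1 point per library (blue WT, red Dp(10)2Yey, circles replicate 1, squares replicate 2). Pdgfra, Cspg4 and C1ql1 chose the OPCs, and the other 3 genes did not. All 6 genes sit high in OPCs and Gpr17-positive cells in every library and near 0 in mature oligodendrocytes and microglia.

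Promoter sequences show the DNA around the start of genes that mark these cells. RefSeq (GRCm38.p6) gave a window of 300 bases around the transcription start for 5 of the 6 identity genes, and C1ql1 had none. Motifs searched on both strands were CAGCTG, which reads the same on both strands, CAGATG or CATCTG on the other strand, ACAAAG or CTTTGT on the other strand, and CCAAT or ATTGG on the other strand. The first 2 are E-boxes, the type of motif bound by OLIG2, the third is a core motif of SOX factors, and the last is the CCAAT box. They occur in 16.3%, 17.2%, 18.7% and 37.4% of all 32851 promoters. Pdgfra (chr5:75152001-75152300), Lhfpl3 (chr5:22745804-22746103) and Tnr (chr1:159523519-159523818), all on the plus strand, are shown because these genes mark OPCs, with matches in capitals. Pdgfra has 1 of the searched E-boxes, Lhfpl3 has 2 and Tnr has 1 SOX motif. Vcan has a CCAAT box and Cspg4 has none of these letters. Other forms of the E-box were not searched. A match describes the sequence and says nothing about binding.
Pdgfra: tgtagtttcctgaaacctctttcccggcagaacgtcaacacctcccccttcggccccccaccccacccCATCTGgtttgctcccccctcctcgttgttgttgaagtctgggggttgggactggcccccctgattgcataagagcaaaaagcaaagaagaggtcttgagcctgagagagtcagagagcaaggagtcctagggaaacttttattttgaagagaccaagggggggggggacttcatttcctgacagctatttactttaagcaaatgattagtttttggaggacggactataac
Lhfpl3: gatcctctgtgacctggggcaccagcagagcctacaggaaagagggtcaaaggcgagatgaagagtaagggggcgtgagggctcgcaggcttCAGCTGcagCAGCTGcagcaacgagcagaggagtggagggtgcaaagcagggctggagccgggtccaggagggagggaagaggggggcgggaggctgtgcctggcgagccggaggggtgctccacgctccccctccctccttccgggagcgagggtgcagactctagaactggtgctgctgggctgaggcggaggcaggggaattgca
Tnr: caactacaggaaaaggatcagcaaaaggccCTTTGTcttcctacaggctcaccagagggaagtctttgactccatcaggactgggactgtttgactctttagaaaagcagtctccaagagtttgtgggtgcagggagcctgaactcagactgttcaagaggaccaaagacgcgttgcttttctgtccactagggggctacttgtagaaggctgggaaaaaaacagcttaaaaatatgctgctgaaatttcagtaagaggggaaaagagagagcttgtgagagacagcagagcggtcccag

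Genes of other cell types were present in OPCs to different degrees. In the order WT replicates 1 and 2 and Dp(10)2Yey replicates 1 and 2, the summed level of 15 microglia markers was 1768, 1857, 1913 and 1692 CPM. Most of it was Cst3, a cystatin that glia also express (1939 UMIs), and the only marker at 0 was P2ry12, whose count the rule limited. The complement genes C1qa and C1qb had 34 and 31 UMIs. A single OPC of WT replicate 2, with 802 UMIs in all, held 149 of the 667 UMIs of the list in that library. The 15 astrocyte markers summed to 2382, 1840.4, 2447 and 2099, led by the glutamate transporter gene Slc1a2 (629 UMIs), with Mlc1 at 0. The 15 neuron markers summed to 1056, 846, 707 and 1123, led by the long noncoding RNA Meg3 (405 UMIs), with none at 0. The genotypes overlapped in all 3 sums, in the neuron list because of a single OPC of Dp(10)2Yey replicate 2 that held 134 of the 470 UMIs there. Without it that library stood at 842, just below WT replicate 2, and without the OPC of WT replicate 2 that also held Neurod1 and Igfbpl1 UMIs, WT replicate 2 stood at 752 and the genotypes overlapped again. Of the astrocyte markers 9 of 15, and of the neuron markers 10 of 15, passed the filter on low counts in OPCs. Endothelial markers summed to 688, 735, 704 and 734, almost all of it Bsg (788 UMIs), with 2 of 10 at 0 (Cdh5 and Ly6c1). Pericyte and smooth muscle markers summed to 8.19, 11.1, 6.93 and 9.56 (7 of 11 at 0, most abundant Myl9 with 6 UMIs). Fibroblast and meningeal markers summed to 73.7, 64, 58.9 and 83.7 (10 of 14 at 0, most abundant Igfbp2 with 55 UMIs). Ependymal and choroid markers summed to 57.3, 19.5, 10.4 and 21.5 (3 of 10 at 0, most abundant Ttr with 8 UMIs), and the genotypes overlapped here too. Red blood cell markers summed to 311, 33.4, 41.6 and 100.4 (Alas2 of 5 at 0, most abundant Hbb-bs with 47 UMIs). A single OPC held 36 of the 38 UMIs of WT replicate 1, which stood at 16.5 without it, so that both Dp(10)2Yey values were then above both WT values, with no test. At least 3 UMIs of the microglia list were held by 240 of the 274 OPCs, of the astrocyte list by 241, of the neuron list by 148, of the endothelial list by 159, of the fibroblast list by 6, of the red blood cell list by 4 and of the pericyte and ependymal lists by 0. The part of free RNA in these counts was not tested.

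Compared with Gpr17-positive cells, the next stage of the lineage, OPCs had lower levels of the genes that accompany differentiation and moderately higher levels of genes such as Ccnd2 and Socs3. Of 4610 genes tested, 76 were higher in OPCs (1.65%) and 154 were lower (3.34%) at an edgeR adjusted p under 0.01, with the rule genes left out. DESeq2 called 67 genes in all. The largest differences were decreases in OPCs: Enpp6, a phosphodiesterase of newly forming oligodendrocytes, and Mag, a myelin adhesion protein gene, were nearly absent from them. Enpp6 and Mag passed the filter on low counts only through Gpr17-positive cells, so their direction follows from the filter. The comparison rests on the same 4 libraries for both classes, and Gpr17 set the limit between them.

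Enpp6 had 1 UMI in all OPCs and 242 UMIs in Gpr17-positive cells, a ratio of 0.00253 (95% counting interval 6.37e-05 to 0.0142). A part of the Gpr17-positive cells carried this level. Among cells that met the other OPC criteria, Enpp6 stood at 0 CPM in the 30 with 3 Gpr17 UMIs and the 29 with 4. It stood at 284 CPM in the 43 with 5 or more. In the same order Bmp4 stood at 50.1, 43.3 and 454 CPM. Mag had 5 and 176 UMIs (-5.68), and Mbp stood at 117 ± 89.3 against 812 ± 472 CPM (-2.87). The long noncoding RNA 9630013A20Rik had 11 and 276 UMIs (-5.27). Bmp4, a secreted growth factor that slows oligodendrocyte maturation, stood at 0 and 33.4 CPM in the WT libraries and 10.4 and 16.7 in the Dp(10)2Yey libraries in OPCs and at 296 and 349 CPM in the WT libraries and 371 and 274 in the Dp(10)2Yey libraries in Gpr17-positive cells, a log2 fold change of -4.15 ± 0.26 SE. Myrf, the transcription factor that switches on myelin genes, stood at 14 ± 5.64 against 101 ± 17.6 (-2.92). Other genes of large decrease were Chn2 (-3.84), a Rac-inactivating chimaerin; Sema4d (-3.76), a semaphorin; Epb41l2 (-3.52), a membrane skeleton protein; Nfasc (-3.05), the adhesion protein neurofascin; and Mycl (-2.71), a transcription factor of the MYC family.

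Increases in OPCs were smaller. The genes named were chosen to have 1 direction in all 4 libraries, so that direction is no result. C1ql2, a secreted protein of the C1q-like family, stood at 79 ± 21.9 against 20.6 ± 15.1 CPM (SD, n = 4 libraries; log2 fold change 1.80 ± 0.39 SE, edgeR adjusted p = 0.00108). Ccnd2, which encodes the cell cycle regulator cyclin D2, stood at 218 ± 22.9 against 90.9 ± 48.2 (1.39 ± 0.23 SE, adjusted p = 1.09e-05 by edgeR). Socs3, an inhibitor of cytokine signaling, stood at 152 ± 54.4 against 54.3 ± 27.3 (1.46 ± 0.26 SE). The others were Slc38a3 (1.42), a glutamine transporter; Cavin3 (1.39), a coat protein of caveolae; Pmp22 (1.35), a myelin protein of Schwann cells; Trib1 (1.22), Lix1l (1.19), Epdr1 (1.17), Cthrc1 (1.14), Creb5 (1.09) and Gsdme (1.07).

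Fyn and Bcas1, genes of differentiation, were high in cells with 5 or more Gpr17 UMIs when cells of all libraries were pooled. Among OPCs, 119 held 0 UMIs of Gpr17, 98 held 1 and 57 held 2. Left out were 30 cells with 3 UMIs, 29 with 4 and 43 with 5 or more. Fyn, a Src-family kinase of differentiating oligodendrocytes, stood at 257, 287 and 264 CPM in OPCs with 0, 1 and 2 Gpr17 UMIs, at 294 and 328 with 3 and 4 UMIs, and at 1788 with 5 or more. Bcas1, an early gene of myelinating cells, stood at 121, 123 and 123, then 144 and 186, then 1126. No test was made, and values below the limit varied between libraries. A UMI of Gpr17 was found in 55.6% and 56.2% of the OPCs in WT replicates 1 and 2 and in 56.5% and 57.3% in Dp(10)2Yey replicates 1 and 2, against 0%, 0%, 0% and 0.118% of microglia. Thinned to 1000 UMIs per cell the OPC shares were 25%, 21.5%, 22.2% and 15.7%.

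**Figure D2:**
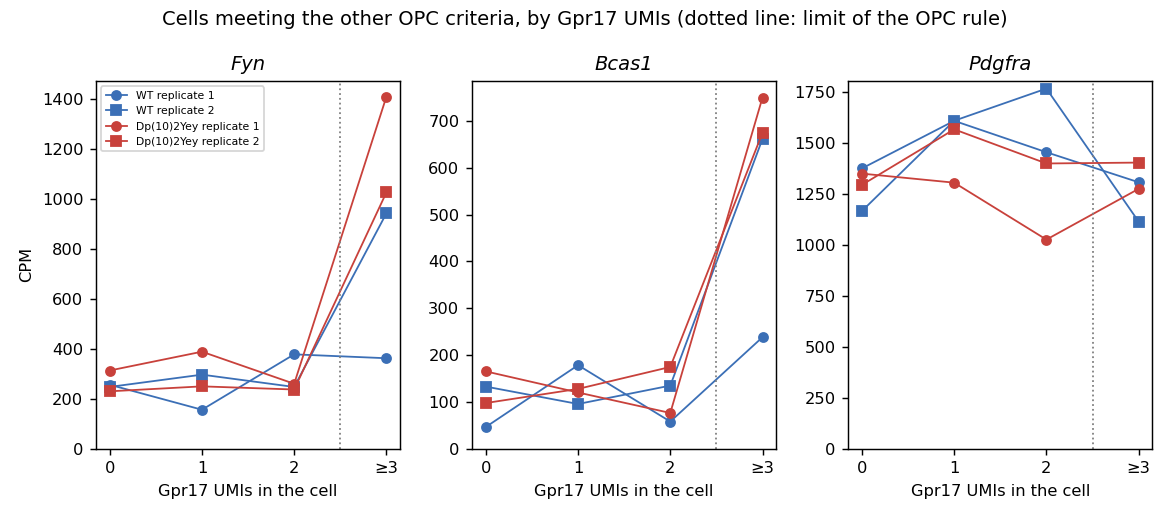
Fyn, Bcas1 and Pdgfra in cells that met the other OPC criteria, by their Gpr17 count (0, 1, 2, and 3 or more UMIs), as CPM with 1 line per library. The dotted line marks the limit of the OPC rule. The last group joins cells with 3 and 4 UMIs, which were near the OPC level in the pooled libraries, to cells with 5 or more, which were not. In 3 libraries Fyn and Bcas1 are highest there. In WT replicate 1 the values vary, and Fyn is no higher at 3 or more than at 2. Pdgfra was used by the rule.

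Compared with mature oligodendrocytes, many genes differed in each direction. Of 6855 genes tested, 1836 were higher in OPCs (26.8%) and 1838 were lower (26.8%) by edgeR at an adjusted p under 0.01, and DESeq2 called 2717 in all. Normalization centers the fold changes (median 0.0017), so the balance of directions is no result. OPCs held genes such as Spon1, Nxph1 and Cacng4 that were absent or nearly absent from mature oligodendrocytes. They held little RNA of myelin genes such as Mal, Ermn and Cldn11. Levels are CPM of each class's total, while fold changes come from the fit after TMM normalization, whose factors were 1.18 to 1.21 for OPCs and 0.821 to 0.849 for mature oligodendrocytes. A ratio of levels can therefore differ from the fold change: Sox10 stood at 663 CPM in OPCs and 478 in mature oligodendrocytes, with a log2 fold change of 0.03.

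Genes at 0 UMIs in mature oligodendrocytes were led by Spon1, the matrix protein F-spondin, with 335 UMIs in OPCs (at least 468-fold higher, taken against the floor of 3 counts). Angptl1, a secreted angiopoietin-like protein, had 167 (at least 233-fold higher), Plpp4, a lipid phosphatase, 147 (at least 205-fold) and Il17d, a cytokine, 136 (at least 190.1-fold). None of these 4 genes was seen in any of the 901 mature cells. Nxph1, which encodes the neurexin ligand neurexophilin, had 457 UMIs against 1, a ratio of 1916 (95% counting interval 342 to 75852). Cacng4, an auxiliary subunit of AMPA receptors, had 865 against 3, a ratio of 1209 (95% counting interval 412 to 5874). Neu4, a sialidase, had 551 against 2, a ratio of 1155 (95% counting interval 318 to 9563). Rlbp1, Olfm2 and Cdo1 were likewise at 526, 508 and 492 UMIs in OPCs and at 2 UMIs each in mature oligodendrocytes, with ratios of 1103 (95% counting interval 304 to 9130.0), 1065 (293 to 8818) and 1032 (284 to 8541). With Vcan and Tnr above, these were the 12 genes of largest fitted increase among called genes with at least 50 CPM and 1 direction in all libraries. The order by ratio of counts can differ. The genes given with counts in this paragraph passed the filter on low counts only through OPCs. Their higher value in OPCs follows from the filter and is given as a description.

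The opposite pattern is given as a description. The genes named passed the filter on low counts only through mature oligodendrocytes, so their lower value in OPCs follows from the filter. Mal, a lipid raft protein of myelin, had 3 UMIs in OPCs against 35014 in mature oligodendrocytes, a ratio of 3.59e-04 (95% counting interval 7.41e-05 to 0.00105). Ermn, which encodes the myelin cytoskeleton protein ermin, had 1 against 10686, a ratio of 3.92e-04 (95% counting interval 9.93e-06 to 0.00219). Cldn11, a claudin of myelin, had 2 against 12617, a ratio of 6.65e-04 (95% counting interval 8.05e-05 to 0.00240), and Ppp1r14a had 2 against 9344, a ratio of 8.97e-04 (95% counting interval 1.09e-04 to 0.00324). Fgfr2, a receptor for fibroblast growth factors, was at 0 in OPCs against 2022 UMIs, at least 161-fold lower. Hapln2, a link protein of nodes of Ranvier, was at least 92.4-fold lower, Unc5b, a netrin receptor, at least 90.6-fold, and Gpr62, an orphan receptor, at least 77.4-fold. The tetraspanin gene Cd82 and the genes Tmem125, Smco3 and Daam2 were also at 0, at least 69.5-fold, 64.7-fold, 60.9-fold and 60.5-fold lower. The 8 genes without a UMI in OPCs had 1162 or fewer UMIs in mature oligodendrocytes, apart from Fgfr2.

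Compared with astrocytes, 1401 of 6641 genes were higher in OPCs (21.1%) and 1694 were lower (25.5%) by edgeR, and DESeq2 called 1994 in all. OPCs carried Sox10, a gene of the oligodendrocyte lineage that was nearly absent from astrocytes, and held no UMI of the astrocyte gene Mlc1. The cells that met the astrocyte rule included 67 with 3 or more UMIs of the ependymal genes Tmem212, Ccdc153 and Rarres2, and several of the largest decreases were of ependymal genes. Without those 67 cells, an alternative chosen after seeing the data, 2629 genes were called.

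Qpct, which encodes glutaminyl cyclase, had 523 UMIs in OPCs and 0 in astrocytes (at least 362-fold higher). Snx22, a sorting nexin, had 156 (at least 108-fold higher), Fam89a 152 (at least 105-fold), Tmem255b 126 (at least 87.3-fold), the synaptic adhesion gene Elfn1 90 (at least 62.4-fold) and the zinc finger factor gene Myt1 85 (at least 58.9-fold). Each of these was at 0 in all astrocytes. Sox10, the transcription factor that defines the oligodendrocyte lineage, stood at 663 ± 83.3 against 1.08 ± 1.32 CPM, a log2 fold change of 8.09 ± 0.28 SE. Pcdh15, a protocadherin, had 342 UMIs against 1, a ratio of 711 (95% counting interval 127 to 28163). Neu4 and Nxph1 had 551 and 457 against 2 each, ratios of 573 (95% counting interval 158 to 4741) and 475 (95% counting interval 131 to 3934). The gene 3110035E14Rik had 603 against 4 (7.61). The genes of this paragraph passed the filter on low counts only through OPCs, so their higher value follows from the filter and is given as a description.

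Mlc1, a membrane protein of astrocyte endfeet, was at 0 in OPCs against 1867 UMIs in astrocytes (at least 299-fold lower). Slco1c1, a thyroxine transporter, was at least 125-fold lower, Prelp at least 105-fold, the NMDA receptor subunit gene Grin2c at least 86.4-fold, Phkg1 at least 66.1-fold and Prodh, a proline dehydrogenase, at least 55.6-fold. The genes Ccdc153 and Tmem212, which mark ependymal cells, were at least 222-fold and 219.5-fold lower. Meig1, 1500015O10Rik, Rsph1 and 1700016K19Rik were at least 103-fold, 92.2-fold, 84.8-fold and 59.5-fold lower. None of the 12 genes had a UMI in an OPC. They passed the filter on low counts only through astrocytes, so their lower value in OPCs follows from the filter and is given as a description.

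Gene lists grouped by role were compared between OPCs and their relatives. In parentheses after each count are the shares of all genes tested that were called higher and lower. The medians of lists stand beside medians over all genes tested of -0.0031 against Gpr17-positive cells, 0.0017 against mature oligodendrocytes and -0.016 against astrocytes. Genes at 0 UMIs in a class were also set at their bound, which moved 2 medians, that of myelin genes against mature oligodendrocytes and that of 8 ependymal genes against astrocytes (from -8.11 to -6.93).

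Growth factor receptors and their feedback genes, listed as genes of OPCs, were above 0 against Gpr17-positive cells in 15 of 18 cases (49.4% of all genes), though few were called. An unadjusted p under 0.05 was found for 9 of the 18, against 895 of 4610 over all genes. Calls in OPCs were 1 of 18 higher and 1 lower against Gpr17-positive cells (all genes 1.65% and 3.34%, median log2 fold change 0.47), 10 of 20 higher and 3 lower against mature oligodendrocytes (all genes 26.8% and 26.8%, median 1.29) and 9 of 21 higher and 7 lower against astrocytes (all genes 21.1% and 25.5%, median -0.05). Ccnd1, the cyclin D1 gene through which growth factors drive division, stood at 1473 and 1125 CPM in the WT libraries and 1473 and 999 in the Dp(10)2Yey libraries in OPCs with overlap of the genotypes, and was higher than in all 3 classes (0.96, 8.66 and 6.77). Spry4, a feedback inhibitor of receptor tyrosine kinases, had 201 UMIs against 1 in mature oligodendrocytes, a ratio of 843 (95% counting interval 149.6 to 33453). Fgfr1 was higher than in mature oligodendrocytes (2.25) and lower than in astrocytes (-2.62), as was Ntrk2, a receptor for brain-derived neurotrophic factor (3.71 and -1.87). Erbb3, a neuregulin receptor, went the other way (-1.03 and 4.40).

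Extracellular matrix and adhesion genes were listed as genes of OPCs, so a higher level there follows in part from the choice of list. In OPCs, the tests called 4 of 19 higher and 3 lower against Gpr17-positive cells (all genes 1.65% and 3.34%, median log2 fold change 0.04), 18 of 19 higher and 0 lower against mature oligodendrocytes (all genes 26.8% and 26.8%, median 5.23) and 14 of 20 higher and 3 lower against astrocytes (all genes 21.1% and 25.5%, median 1.79). Ptprz1, a receptor phosphatase that binds tenascin and contactin, stood at 3765 and 3581 CPM in the WT libraries and 3220.2 and 3688 in the Dp(10)2Yey libraries. The genotypes overlapped, and it was higher than in all 3 classes (0.44, 6.70 and 0.78). Cspg5, the proteoglycan neuroglycan C, was too (0.78, 6.62 and 0.95), as was the adhesion gene Cntn1, contactin (0.41, 4.12 and 3.60). Bcan, which encodes brevican, was higher than in mature oligodendrocytes (6.09) and lower than in astrocytes (-0.89). Col9a3 and Ncam1 were lower than in Gpr17-positive cells (-0.96 and -0.55).

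Lineage transcription factors differed in their stage. The counts in OPCs were 3 of 24 higher and 4 lower against Gpr17-positive cells (all genes 1.65% and 3.34%, median log2 fold change -0.10), 19 of 28 higher and 6 lower against mature oligodendrocytes (all genes 26.8% and 26.8%, median 1.07) and 13 of 26 higher and 7 lower against astrocytes (all genes 21.1% and 25.5%, median 0.51). Olig1 and Olig2, which specify the lineage, were higher than in mature oligodendrocytes (1.08 and 1.70) and astrocytes (4.46 and 4.45). For Sox10 no difference from mature oligodendrocytes was detected (0.03 ± 0.09 SE), whereas Sox6, a factor of the precursor stage, was higher (6.99). Hes1, Hes5 and Id2, which hold back differentiation, were higher than in Gpr17-positive cells (0.94, 0.73 and 0.88), while Nkx2-2, Tcf7l2 and Zeb2, which act in differentiation, were lower (-0.88, -1.54 and -0.98). The increase of Hes5 came from OPCs with 1 or 2 Gpr17 UMIs, at 368 and 417 CPM. OPCs with 0 stood at 135, below the 203 of cells with 3 or more that met the other criteria, and they were lower in all 4 libraries. Sox3 had 94 UMIs against 0 in mature oligodendrocytes (at least 131-fold higher), and St18 had 0 against 720 (at least 57.2-fold lower). Sox9, which astrocytes express, had 2 UMIs in OPCs, a ratio of 0.00228 (95% counting interval 2.76e-04 to 0.00824).

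Genes of differentiating oligodendrocytes and of myelin were lower in OPCs than in Gpr17-positive cells. In the first list, OPCs had 0 of 13 higher and 12 lower against Gpr17-positive cells (all genes 1.65% and 3.34%, median log2 fold change -1.69), 6 of 12 higher and 6 lower against mature oligodendrocytes (all genes 26.8% and 26.8%, median 0.07) and 8 of 10 higher and 0 lower against astrocytes (all genes 21.1% and 25.5%, median 1.54). Bcas1 (-2.64), Fyn (-2.28), Sirt2 (-1.67) and Itpr2 (-0.96) were lower than in Gpr17-positive cells, and Fyn and Itpr2 were higher than in mature oligodendrocytes (1.88 and 3.52). Myelin genes were lower without exception against both oligodendrocyte classes, with 0 of 6 higher and 6 lower against Gpr17-positive cells (all genes 1.65% and 3.34%, median log2 fold change -2.72), 0 of 17 higher and 17 lower against mature oligodendrocytes (all genes 26.8% and 26.8%, median -8.96) and 2 of 7 higher and 4 lower against astrocytes (all genes 21.1% and 25.5%, median -0.85). With Hapln2 at its bound the median against mature oligodendrocytes was -8.92. Only 6 of the 20 listed genes passed the filter on low counts in OPCs alone. For genes that passed it only through the mature class, a lower value in OPCs follows from the filter. That direction is given as a description. The myelin list summed to 638, 596, 776 and 523 CPM in OPCs, and Cnp, an enzyme of myelin, was its most abundant gene with 200 UMIs. At least 3 UMIs of the list were held by 117 OPCs, and Mog and Opalin are rule genes.

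Neurotransmitter receptors and ion channels, through which OPCs sense neurons, were listed for their presence in OPCs, and this choice favors higher values there. Among receptors, OPCs had 2 of 10 higher and 0 lower against Gpr17-positive cells (all genes 1.65% and 3.34%, median log2 fold change 0.34), 12 of 14 higher and 1 lower against mature oligodendrocytes (all genes 26.8% and 26.8%, median 2.40) and 8 of 17 higher and 6 lower against astrocytes (all genes 21.1% and 25.5%, median 0.19). Gria3, an AMPA receptor subunit, was higher than in Gpr17-positive cells (0.65) and astrocytes (4.79) and had 391 UMIs against 3 in mature oligodendrocytes, a ratio of 547 (95% counting interval 186 to 2662). Gria2 was higher than in mature oligodendrocytes (5.76) with no detected difference from astrocytes (-0.02 ± 0.12 SE). The metabotropic receptor gene Grm5 was higher than in all 3 classes (0.63, 6.50 and 3.85). Grm3 was nearly absent with 2 UMIs in OPCs, a ratio of 0.0128 (95% counting interval 0.00154 to 0.0464) to mature oligodendrocytes. Among channels, they had 1 of 14 higher and 0 lower against Gpr17-positive cells (all genes 1.65% and 3.34%, median log2 fold change 0.28), 15 of 19 higher and 3 lower against mature oligodendrocytes (all genes 26.8% and 26.8%, median 4.07) and 10 of 16 higher and 3 lower against astrocytes (all genes 21.1% and 25.5%, median 1.60). Kcnip3, a potassium channel partner, was higher than in all 3 classes (0.91, 7.15 and 1.93). Scn3a, a sodium channel, was higher than in mature oligodendrocytes and astrocytes (6.39 and 5.21), and the potassium channel gene Kcnj10 was lower than in both (-0.97 and -1.24).

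Among Notch, Wnt and BMP signaling genes, OPCs had 2 of 9 higher and 1 lower against Gpr17-positive cells (all genes 1.65% and 3.34%, median log2 fold change 0.01), 7 of 15 higher and 2 lower against mature oligodendrocytes (all genes 26.8% and 26.8%, median 0.63) and 2 of 14 higher and 6 lower against astrocytes (all genes 21.1% and 25.5%, median -0.49). The 2 genes lower than in mature oligodendrocytes and the 2 higher than in astrocytes lie below the shares over all genes. Notch1 was higher than in mature oligodendrocytes (3.77) and lower than in astrocytes (-0.52). Dll3, a Notch ligand, had 70 UMIs against 0 in mature oligodendrocytes (at least 97.8-fold higher), and Smad7, an inhibitor of TGF-beta signaling, was lower than in them (-3.64). Cholesterol synthesis genes, whose product mature myelin needs, had no detected difference from Gpr17-positive cells and were mostly lower than in the other classes, with 0 of 8 higher and 0 lower against Gpr17-positive cells (all genes 1.65% and 3.34%, median log2 fold change 0.09), 1 of 18 higher and 12 lower against mature oligodendrocytes (all genes 26.8% and 26.8%, median -1.42) and 0 of 21 higher and 18 lower against astrocytes (all genes 21.1% and 25.5%, median -2.02). Hmgcs1 (-2.17 and -2.57) and Msmo1 (-1.67 and -3.25) were lower against both. Antigen presentation and interferon genes were few, with 0 of 4 higher and 0 lower against Gpr17-positive cells (all genes 1.65% and 3.34%, median log2 fold change 0.15), 4 of 6 higher and 0 lower against mature oligodendrocytes (all genes 26.8% and 26.8%, median 1.23) and 2 of 7 higher and 3 lower against astrocytes (all genes 21.1% and 25.5%, median -0.43). B2m and H2-D1 were higher than in mature oligodendrocytes (1.62 and 1.74).

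Immediate early and dissociation response genes showed no common direction against oligodendrocytes, with 1 of 19 higher and 1 lower against Gpr17-positive cells (all genes 1.65% and 3.34%, median log2 fold change 0.04), 9 of 27 higher and 11 lower against mature oligodendrocytes (all genes 26.8% and 26.8%, median -0.19) and 12 of 25 higher and 4 lower against astrocytes (all genes 21.1% and 25.5%, median 1.05). Fos, an early response transcription factor, was higher than in astrocytes (4.30), and Sgk1 was lower than in Gpr17-positive cells (-1.36). The summed level of the list was lower in OPCs than in astrocytes in every library. In WT replicates 1 and 2 it was 7023 and 8926 CPM in OPCs and 15410 and 14962 in astrocytes. In Dp(10)2Yey replicates 1 and 2 it was 8607 and 10066 CPM in OPCs and 16221 and 16432 in astrocytes. Of the S phase genes all 5 tested against Gpr17-positive cells were above 0, 2 of them at an unadjusted p under 0.05. The calls were 0 of 5 higher and 0 lower against Gpr17-positive cells (all genes 1.65% and 3.34%, median log2 fold change 0.50), 4 of 7 higher and 0 lower against mature oligodendrocytes (all genes 26.8% and 26.8%, median 0.85) and 3 of 5 higher and 0 lower against astrocytes (all genes 21.1% and 25.5%, median 1.09). G2/M genes had 1 of 7 higher and 0 lower against Gpr17-positive cells (all genes 1.65% and 3.34%, median log2 fold change -0.08), 5 of 10 higher and 3 lower against mature oligodendrocytes (all genes 26.8% and 26.8%, median 0.14) and 4 of 10 higher and 3 lower against astrocytes (all genes 21.1% and 25.5%, median 0.53). Hmgb2, a chromatin protein of dividing cells, was higher in OPCs than in all 3 classes (1.28, 3.16 and 0.99), and Pcna, the DNA polymerase clamp, was higher than in astrocytes (1.25). The 18 cycling OPCs defined below held 192 of the 357 Hmgb2 UMIs. They stood at 1909 CPM of Hmgb2, and the other 256 OPCs at 152. Pcna stood at 398 CPM in cycling and 65.3 in other OPCs. These class values therefore rest in large part on few cells.

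**Figure D3:**
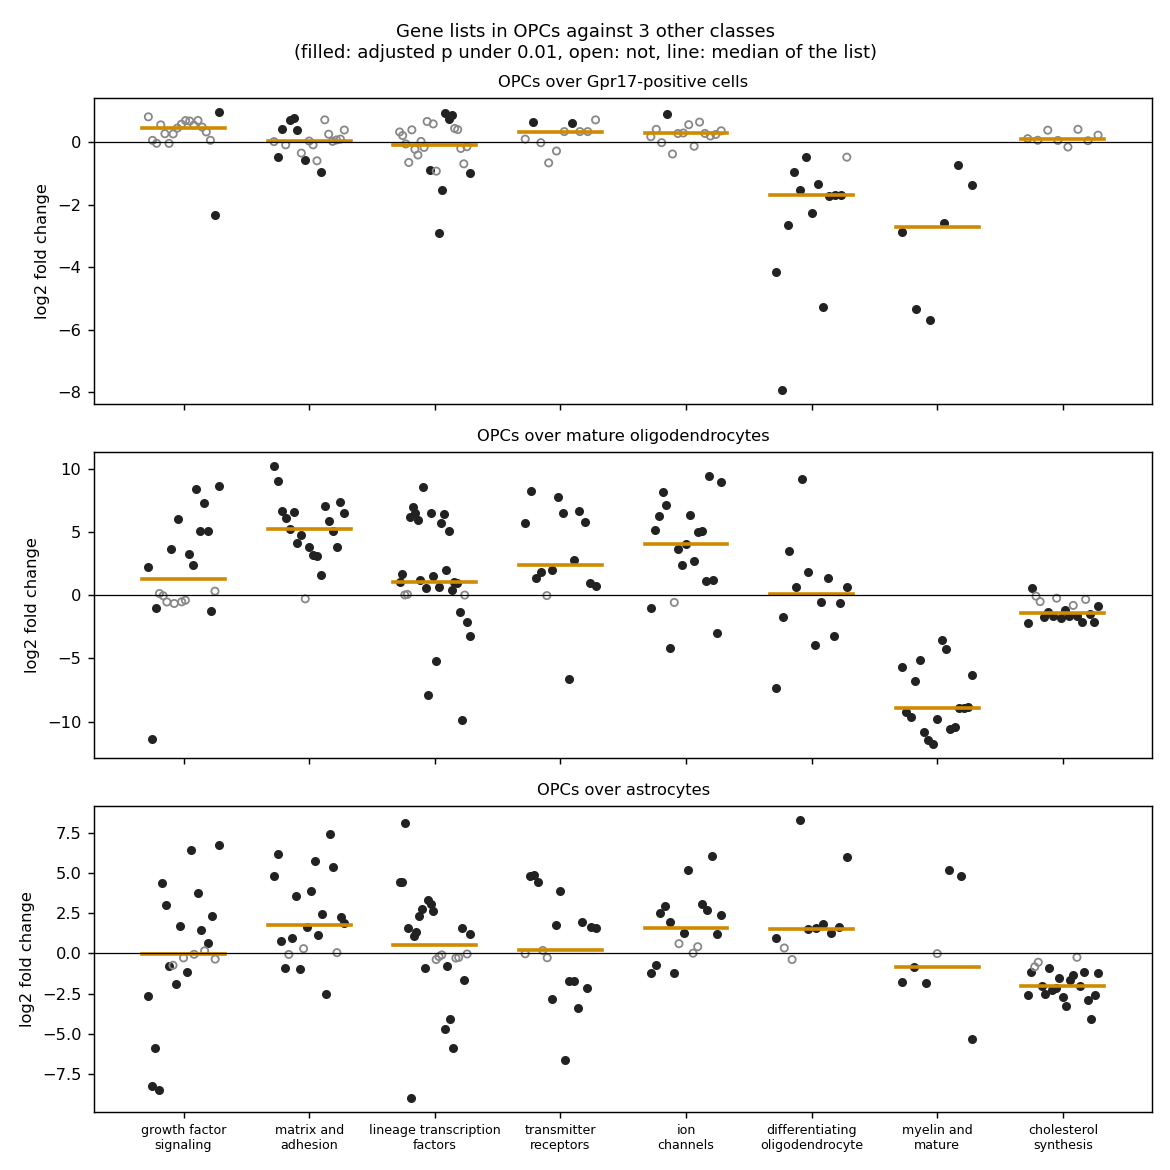
Log2 fold change of each tested gene of 8 lists in OPCs against Gpr17-positive cells, mature oligodendrocytes and astrocytes, with 1 point per gene (filled where the adjusted p was under 0.01, open where not) and an orange line at the list's median. Rule genes are left out. Myelin genes lie far below 0 against mature oligodendrocytes (median -8.96) and the matrix genes listed for OPCs far above it (median 5.23). Of the 20 listed myelin genes, 6 passed the filter on low counts in OPCs alone.

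OPCs differed among themselves most in Malat1, early response genes and mitochondrial transcripts. Of 9127 genes with a UMI in at least 5% of OPCs, whose median variance of Pearson residuals within a library was 1, Malat1, a nuclear noncoding RNA, varied most (17). The early response genes Fos (8.12), Jun (4.15) and Egr1 (3.93) were among the 15 most variable. The mitochondrially encoded genes there were mt-Atp6 (7.18), mt-Co3 (6.59), mt-Co2 (6.41), mt-Cytb (5.50), mt-Co1 (5.02), mt-Nd2 (4.05), mt-Nd1 (3.79) and mt-Nd4 (3.72). Apoe (5.52), a lipid carrier, Gm42418 (4.33) and Stmn1 (3.56), a microtubule regulator, made up the rest. Fos UMIs were found in 55.6% and 72.5% of OPCs in WT replicates 1 and 2 and in 68.1% and 80.9% in Dp(10)2Yey replicates 1 and 2, and after thinning to 1000 UMIs in 50%, 51.9%, 52.4% and 72.3%. WT replicate 1 was lowest and Dp(10)2Yey replicate 2 highest both times. The groups overlapped before thinning, and after it both Dp(10)2Yey values were above both WT values, by less than 1 point at the closest. In microglia the shares were 79.3%, 84.8%, 82.6% and 87.3%. The thinned shares of the other early response genes overlapped between genotypes in OPCs. For Jun they were 37.5% and 54.4% in the WT pair and 46.0% and 67.5% in the Dp(10)2Yey pair. For Egr1 they were 15.6% and 21.5% in the WT pair and 7.94% and 20.5% in the Dp(10)2Yey pair. Median OPC depths differed between libraries as given above, and the part of dissociation in these values was not tested. Another 2 OPCs stood apart with 23 and 69 UMIs of the neuronal precursor genes Neurod1 and Igfbpl1, 1 in WT replicate 2 (8330 UMIs in all) and 1 in Dp(10)2Yey replicate 2 (19396 UMIs, the deepest OPC).

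Cycling OPCs, taken as those with 3 or more UMIs of the S and G2/M lists including Mki67 or Top2a, were 18 of 274 (6.57%, 95% Clopper-Pearson interval 3.94% to 10.2%). They were 0 of 36 in WT replicate 1 (0%, 0% to 9.74%; the floor of 3 counts is 8.33%) and 6 of 80 in WT replicate 2 (7.5%, 2.80% to 15.6%). In Dp(10)2Yey replicates 1 and 2 they were 4 of 69 (5.80%, 1.60% to 14.2%) and 8 of 89 (8.99%, 3.96% to 16.9%). Only the small WT replicate 1 had none, and the other 3 intervals overlapped widely. Among microglia 8 of 2168 (0.369%) met the same rule, at median depths of 4412.5 UMIs for OPCs and 3980 for microglia. Thinned to 1000 UMIs per cell, 11 of 257 OPCs (4.28%) and 0.195% of microglia did, with 17 shallower OPCs left out. The mean share was 7.39% ± 2.26 in Dp(10)2Yey mice and 3.75% ± 5.30 in WT mice (SD, n = 2 each; exact two-sided permutation p = 0.67, where 0.33 is the smallest that 2 against 2 can give). The difference of 3.64 points was -0.107 without WT replicate 1 and 1.02 after thinning.

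Cycling OPCs held a median of 5566.5 UMIs and the other 256 a median of 4344. Among genes of division that the rule also read, Cdk1, the mitotic kinase, stood at 527 CPM in cycling and 2.76 in other OPCs, and Hmgb2 at 1909 CPM in cycling and 152 in other OPCs. Pcna stood at 398 CPM in cycling and 65.3 in other OPCs. These follow from how cycling cells were chosen. Of the OPC genes that neither rule used, Lhfpl3 stood at 905 CPM in cycling and 1268 in other OPCs, Tnr at 746 CPM in cycling and 1041 in other OPCs and Vcan at 398 CPM in cycling and 611 in other OPCs. All 3 were present in cycling OPCs and lower there than in the others, with no test. Ccnd1 stood at 1382 CPM in cycling and 1184 in other OPCs. Of the genes that chose the OPCs, Pdgfra stood at 1382 CPM in cycling and 1395 in other OPCs, Cspg4 at 348 CPM in cycling and 522 in other OPCs and C1ql1 at 746 CPM in cycling and 1221 in other OPCs. Gpr17 stood at 59.7 CPM in cycling and 189 in other OPCs (5 of 18 and 150 of 256 cells with a UMI), with no test.

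Between genotypes, no gene of OPCs passed the test, and the clearest pattern lay in the duplicated part of chromosome 10, whose genes were mostly higher in Dp(10)2Yey OPCs. Of 6351 genes tested, edgeR called 0 (0%) at an adjusted p under 0.01, and 239 had an unadjusted p under 0.05. DESeq2 called 0 and had 20 under 0.05. The smallest adjusted p by edgeR was 0.507. In 1099 genes (17.3%) each Dp(10)2Yey value exceeded each WT value, and in 917 (14.4%) each was lower, where a random order gives 16.7% in each direction. The comparison addresses whether RNA levels in OPCs differ with the duplication, and it rests on 2 libraries per group.

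The duplicated segment, chr10:76207222-78464975, holds 99 annotated genes, 62 of them protein-coding. Of 76 that the files list, 45 had no UMI in OPCs, 31 had at least 1, and 17 passed the filter on low counts. Of these 17, 16 had a fitted log2 fold change above 0 and 15 a higher mean level in Dp(10)2Yey, and 12 had both Dp(10)2Yey values above both WT values, against 17.3% of all genes. In no gene were both below, against 14.4% of all genes. The median log2 fold change of the 17 was 0.70 (-0.36 to 1.27), and that of all genes tested was -0.0036, with 49.6% above 0. Taken 1 library at a time against the WT mean, the segment median was 0.82 and 0.75 in the Dp(10)2Yey pair. Of the 17, 8 had an unadjusted p under 0.05 by edgeR and 0 passed after adjustment.

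S100b, the best covered gene of the segment, encodes a calcium-binding protein that OPCs and astrocytes share. It stood at 958 and 972 CPM in the WT libraries and 1570.3 and 1353 in the Dp(10)2Yey libraries. Both Dp(10)2Yey libraries were above both WT libraries, and the WT libraries were nearly equal. Its log2 fold change 0.57 ± 0.18 SE had an unadjusted p of 0.00375 by edgeR and did not pass after adjustment. S100b (ENSMUSG00000033208, chr10:76253853-76261159, plus strand) overlaps Dip2a (chr10:76259429-76345291, minus strand), so in the shared bases the genes can be told apart only by the strand of the reads, which Cell Ranger uses by default. The settings of the run are not known here. It was lower in OPCs than in Gpr17-positive cells (-0.62), higher than in mature oligodendrocytes (1.33) and with no detected difference from astrocytes (0.17 ± 0.11 SE). Its promoter window (RefSeq, GRCm38.p6, chr10:76253586-76253885, plus strand) is shown as the regulatory sequence that is present in an extra copy, with its CCAAT boxes, CCAAT and ATTGG, in capitals.
S100b: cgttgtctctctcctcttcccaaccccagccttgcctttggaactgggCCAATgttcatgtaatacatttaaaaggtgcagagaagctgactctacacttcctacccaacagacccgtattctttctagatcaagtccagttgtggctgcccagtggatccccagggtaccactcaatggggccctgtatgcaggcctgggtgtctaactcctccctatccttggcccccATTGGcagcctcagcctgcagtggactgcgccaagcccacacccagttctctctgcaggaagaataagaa

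Rrp1 (ENSMUSG00000061032, chr10:78400384-78413043, minus strand), a ribosomal RNA processing factor, stood at 106 and 83.5 CPM in the WT libraries and 173 and 234 in the Dp(10)2Yey libraries (log2 fold change 1.17 ± 0.28 SE). Agpat3 (ENSMUSG00000001211, chr10:78269178-78352489, minus strand), an acyltransferase of phospholipid synthesis, stood at 98.2 and 91.9 CPM in the WT libraries and 191 and 167 in the Dp(10)2Yey libraries (log2 fold change 0.89 ± 0.27 SE). In both genes the groups did not overlap. Pttg1ip stood at 65.5 and 75.2 CPM in the WT libraries and 128 and 124 in the Dp(10)2Yey libraries (0.77). Cstb, a cystatin that inhibits cathepsins, stood at 90 and 119.7 CPM in the WT libraries and 187 and 167 in the Dp(10)2Yey libraries (0.64). Pofut2, a fucosyltransferase, stood at 73.7 and 61.3 CPM in the WT libraries and 97.1 and 124 in the Dp(10)2Yey libraries (0.76). Again no WT value reached a Dp(10)2Yey value. Prmt2 (0.58), Dip2a (1.01), Col18a1 (1.27), Sumo3 (0.47), D10Jhu81e (1.11) and Pdxk (0.76) were also without overlap. The groups overlapped in Pcnt (0.27), Pcbp3 (0.70), Adarb1 (0.18) and Trappc10 (0.30), and in Mcm3ap (-0.36). Mcm3ap was below 0, and the mean level of Adarb1 was also lower in Dp(10)2Yey (28.3 against 30.2 CPM), against the sign of its fitted value. These had 33 to 87 UMIs in all OPCs. Removing 1 library changed the sign of Pcnt, Mcm3ap, Adarb1 and Trappc10.

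The same segment had a median of 0.61 on the log2 scale in Gpr17-positive cells (9 genes tested, 8 above 0), 0.58 in mature oligodendrocytes (20 tested, 20 above 0) and 0.54 in astrocytes (20 tested, 19 above 0), each with its own cells from the same 4 mice. No segment gene was called in the tests of an interaction between class and genotype, so no difference of the segment between OPCs and mature oligodendrocytes or astrocytes was detected at this depth.

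**Figure D4:**
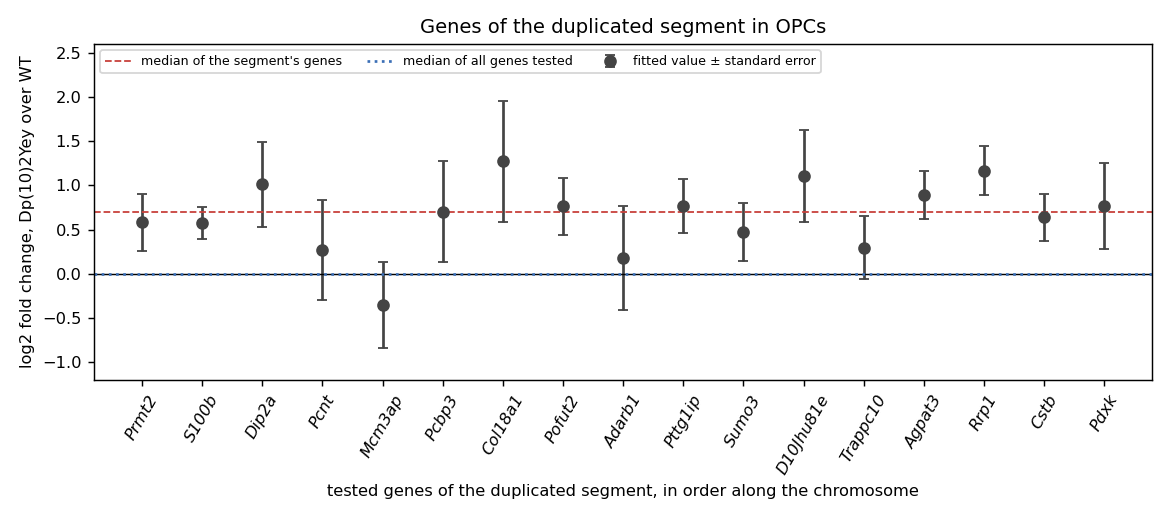
Genotype log2 fold change in OPCs, with its standard error, of the 17 tested genes of the duplicated segment in their order on the chromosome. The dashed red line is their median (0.70) and the dotted blue line the median of all 6351 genes tested. All genes but Mcm3ap lie above 0.

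Outside the segment, the genes named are those of smallest unadjusted p whose groups did not overlap. They were picked for that separation, so the separation adds no evidence, and none passed after adjustment. Sdf2l1, a chaperone of the endoplasmic reticulum, stood at 90 and 39 CPM in the WT libraries and 142 and 158 in the Dp(10)2Yey libraries (log2 fold change 1.47 ± 0.34 SE). Pdia3, a disulfide isomerase of the same compartment, stood at 229 and 200.5 CPM in the WT libraries and 350.1 and 329.9 in the Dp(10)2Yey libraries (log2 fold change 0.66 ± 0.22 SE). Both were higher in each Dp(10)2Yey library. Cdk2ap2 (1.43), the homeobox gene Meis3 (2.13), Pip4k2a (1.97), a phosphoinositide kinase, Add1 (0.90), which encodes adducin, and Mrps5 (0.81), a mitochondrial ribosomal protein gene, had the same direction. Rybp had 0 and 3 UMIs in WT replicates 1 and 2 and 10 and 15 in Dp(10)2Yey replicates 1 and 2 (2.41). With Rrp1, Agpat3 and S100b of the segment and Mbp, these were the 12 genes named. Mbp stood at 73.7 and 55.7 CPM in the WT libraries and 249.6 and 90.8 in the Dp(10)2Yey libraries (log2 fold change 1.37 ± 0.40 SE). Its mean was set by Dp(10)2Yey replicate 1: without that library the log2 fold change was 0.56, and without Dp(10)2Yey replicate 2 it was 2.00 and was called. The myelin list as a whole was highest in Dp(10)2Yey replicate 1 too, at 776 CPM against 523 in its partner and 638 and 596 in the WT pair. The part of free myelin RNA in this was not tested.

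Lower in both Dp(10)2Yey libraries were Fasn, the fatty acid synthase, at 156 and 117 CPM in the WT libraries and 58.9 and 59.8 in the Dp(10)2Yey libraries (log2 fold change -1.14 ± 0.31 SE), and Rpa3, a DNA replication protein, at 81.9 and 94.7 CPM in the WT libraries and 41.6 and 33.5 in the Dp(10)2Yey libraries (log2 fold change -1.31 ± 0.38 SE). Pde1c, a calmodulin-dependent phosphodiesterase, stood at 90 and 33.4 CPM in the WT libraries and 6.93 and 14.3 in the Dp(10)2Yey libraries (log2 fold change -2.15 ± 0.65 SE), with 2 and 6 UMIs in the Dp(10)2Yey libraries. These counts are small, and the values of WT replicates 1 and 2 differ as much as some of the groups do. Tns3 (-0.94), a focal adhesion protein gene of the lineage, Hist1h4d (-1.23), a histone gene, Stx17 (-1.39), a syntaxin of autophagosomes, Esco1 (-1.54), a cohesin acetyltransferase, Fam171a2 (-1.50), Stxbp5l (-1.54) and Mir124-2hg (-1.29), the host gene of a microRNA, had the same direction. Gm42418, a predicted gene that overlaps ribosomal RNA sequence, stood at 12761 and 18334 CPM in the WT libraries and 9737 and 7217 in the Dp(10)2Yey libraries (log2 fold change -0.90 ± 0.20 SE), and Lars2, a mitochondrial leucyl-tRNA synthetase, at 385 and 677 CPM in the WT libraries and 295 and 299 in the Dp(10)2Yey libraries (log2 fold change -0.94 ± 0.23 SE). WT replicate 2 was highest in both.

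Leaving out a library changed the count of calls. It was 0 without WT replicate 1 and 1 without WT replicate 2 (Hbb-bs, of which 1 OPC held 20 of the 21 UMIs of WT replicate 1). It was 10 without Dp(10)2Yey replicate 1, which leaves Dp(10)2Yey replicate 2 alone: Gm42418, Hist1h1b, Igfbpl1, mt-Atp6, mt-Co2, mt-Co3, mt-Cytb, mt-Nd1, mt-Nd2 and mt-Nd3. All 37 Igfbpl1 UMIs of Dp(10)2Yey replicate 2 were in 1 OPC, and 30 of the 38 Hist1h1b UMIs of WT replicate 2 were in 1 OPC. The median mitochondrial share of OPCs in Dp(10)2Yey replicate 2 was 2.63%, against 4.53% and 4.82% in the WT pair. Without Dp(10)2Yey replicate 2 it was 3 (Gm42418, Malat1 and Mbp). Calls of this kind rest on a group with 1 library.

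No list of OPC genes held a called gene. The genotype medians were -0.13 over 20 growth factor genes, -0.11 over 20 matrix genes, 0.06 over 25 transcription factors and 0.03 over 11 differentiation genes. In the same order 5 of 20, 3 of 20, 18 of 25 and 6 of 11 were above 0, against 49.6% of all genes. The rule genes Pdgfra, Cspg4 and Gpr17, all below 0, are members of the growth factor, matrix and differentiation lists, and without them the counts are 5 of 19, 3 of 19 and 6 of 10. In the growth factor list Insr (-1.21), the insulin receptor gene, had an unadjusted p under 0.05. Myelin genes had a median of -0.04 over 6, with an unadjusted p under 0.05 in Mbp (1.37), Mobp (1.30) and Cnp (-0.63), whose signs differed. The median was -0.19 over 16 transmitter receptors, where Gria2 (-0.45) had such a p, 0.05 over 21 channels and -0.15 over 16 Notch, Wnt and BMP genes, where Smad7 (-0.90) had one. S phase genes had 0.04 over 10, with Mcm6 (1.12) and Hells (1.85) under 0.05. G2/M genes had -0.28 over 16, with Top2a (-0.95) and Tmpo (-0.69) under 0.05. All 152 Top2a UMIs were in cycling OPCs, of which WT replicate 1 had 0. Hells had 0 and 4 UMIs in WT replicates 1 and 2 and 9 and 13 in Dp(10)2Yey replicates 1 and 2. These values therefore rest on few cells or few counts. Immediate early genes had -0.0045 over 25, cholesterol synthesis genes -0.07 over 14, antigen and interferon genes -0.04 over 6, and a list of Lars2, Gm42418, AY036118, Malat1 and Meg3 -0.52 over 5. In that last list Lars2 (-0.94), Gm42418 (-0.90) and AY036118 (-0.52) had an unadjusted p under 0.05 by edgeR. Both Dp(10)2Yey values were below both WT values in these 3 genes. The median over all genes tested was -0.0036.

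The OPC share of cells did not separate the genotypes. It averaged 4.55% ± 0.763 in Dp(10)2Yey mice and 4.13% ± 0.864 in WT mice (SD, n = 2 each), a difference of 0.419 points (exact two-sided permutation p = 0.67). The difference was -0.193 without WT replicate 1, 1.03 without WT replicate 2, -0.121 without Dp(10)2Yey replicate 1 and 0.959 without Dp(10)2Yey replicate 2, so its sign rests on single libraries. Within the lineage (OPCs, Gpr17-positive cells and mature oligodendrocytes), OPCs were 23.2% and 19.7% in WT replicates 1 and 2 and 22.3% and 21.4% in Dp(10)2Yey replicates 1 and 2, with the Dp(10)2Yey values between the WT values. Dissociation and capture set how many cells of each type are recovered, so these shares are of captured cells and not of the tissue.

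**Figure D5:**
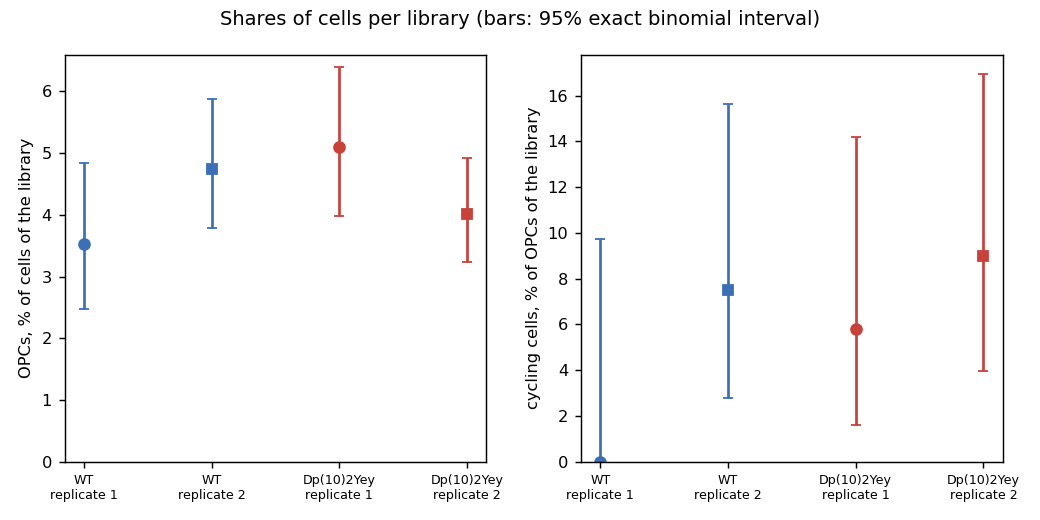
OPC share of all cells and cycling share of OPCs in each library, in percent, with 95% Clopper-Pearson intervals as bars (blue WT, red Dp(10)2Yey). The intervals of the OPC shares overlap, and no cycling cell was found among the 36 OPCs of WT replicate 1.

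Whether a genotype difference was particular to OPCs was tested as an interaction between class and genotype. Against mature oligodendrocytes 9 of 8367 genes were called (0.108%), 8 of them negative, which means a lower genotype difference in OPCs, and 342 had an unadjusted p under 0.05. Against astrocytes 9 of 8311 were called (0.108%), 7 of them positive, and 315 had an unadjusted p under 0.05. These tests were run with edgeR alone. Levels of Mt3 and Sparcl1 varied less in proportion between libraries in OPCs than in mature oligodendrocytes, as did Slc38a2 and Slc4a10 against astrocytes. Mbp varied more in OPCs than in mature oligodendrocytes. OPC levels of Hbb-bs, Hba-a1 and Abcg2 also differed widely between libraries.

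Mt3, a metallothionein, stood at 794 and 883 CPM in WT and 808 and 1039.8 in Dp(10)2Yey in OPCs and at 65.2 and 188 CPM in WT and 280.0 and 526 in Dp(10)2Yey in mature oligodendrocytes. Sparcl1, a matricellular protein of astrocytes, stood at 671 and 668 CPM in WT and 693 and 760.1 in Dp(10)2Yey in OPCs and at 3.84 and 33.7 CPM in WT and 102 and 83.6 in Dp(10)2Yey in mature oligodendrocytes. In both genes the levels varied less in proportion between libraries in OPCs than in mature cells, and the mature cells of both Dp(10)2Yey mice held more than those of both WT mice. Slc1a2, Tubb2b, Fabp7, Nkain4 and Ptprz1, genes that OPCs or astrocytes express strongly, had the same form. In mature oligodendrocytes the summed astrocyte markers stood at 317 and 565 CPM in the WT pair and 1156 and 716 in the Dp(10)2Yey pair. The part of astrocyte or OPC RNA in these calls was not tested. With doublets removed 2 calls were left, Hbb-bs and Mt3. Most Hbb-bs UMIs of OPCs in WT replicate 1 came from 1 barcode (20 of 21). Mbp was the positive call, at 73.7 and 55.7 CPM in WT and 249.6 and 90.8 in Dp(10)2Yey in OPCs and 4576 and 4291 CPM in WT and 4635 and 4214 in Dp(10)2Yey in mature oligodendrocytes.

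Against astrocytes, the positive calls followed 1 library. Slc38a2, an amino acid transporter, stood at 237 and 295 CPM in WT and 277 and 203 in Dp(10)2Yey in OPCs and at 66.2 and 1008 CPM in WT and 53.4 and 193 in Dp(10)2Yey in astrocytes. Slc4a10, a bicarbonate transporter, stood at 40.9 and 41.8 CPM in WT and 52 and 47.8 in Dp(10)2Yey and 14.7 and 263 CPM in WT and 4.27 and 30.6 in Dp(10)2Yey. Astrocytes of WT replicate 2 were highest in these genes and in Ly6e, Tmeff2, Slc26a2, Abcg2 and Tspan13, and without that library 5 of the 7 changed sign. In the astrocyte class the summed fibroblast and meningeal markers were also highest in WT replicate 2, at 1073 CPM. They stood at 342 in WT replicate 1 and at 248 and 325 in the Dp(10)2Yey pair. The part of other cell types in these calls was not tested. The globin genes Hba-a1 and Hbb-bs, the negative calls, were highest in OPCs of WT replicate 1 and in astrocytes of Dp(10)2Yey replicate 2. A single OPC held 11 of the 11 Hba-a1 UMIs and 20 of the 21 Hbb-bs UMIs of WT replicate 1, so the OPC side of these calls rests on 1 barcode there.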

How the data were processed

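Hippocampal cells of 4 mice were measured, with 1 library per mouse. The authors deposited raw UMI counts from Cell Ranger 3.0.2 against a custom mm10 reference, of called cells only, for 31055 genes. Barcodes with at least 200 genes were kept. UMIs were summed per library and class, and genotypes, classes and their interaction were compared with edgeR 4.0.16 (TMM, filterByExpr, quasi-likelihood test; library as block between classes) in R 4.3.3, with Benjamini-Hochberg adjustment over all genes tested and a threshold of 0.01. The 10 rule genes, and Gja1 and Aqp4 for astrocytes, were left out of class counts. Other classes needed 3 or more UMIs of their own genes. Gpr17-positive cells had at most 2 UMIs of P2ry12, Cx3cr1, Mog, Opalin, Cldn5 and Vtn together and no other limit. The rest had fewer than 3 of Gpr17 and at most 2 of Pdgfra, Cspg4 and C1ql1 together. Mature oligodendrocytes had at most 2 of P2ry12, Cx3cr1, Cldn5 and Vtn together, with no limit on Gja1 and Aqp4. Astrocytes shared the limit of Gpr17-positive cells. Microglia had at most 2 of Mog, Opalin, Cldn5 and Vtn together and at most 2 of Gja1 and Aqp4. Shares were compared by exact two-sided permutation tests (scipy 1.17.1), and doublets were called by Scrublet in scanpy 1.11.5. Named genes are from the 12 of smallest p without overlap (genotype) or of largest called fold change with at least 50 CPM and 1 direction in all libraries (classes), in each direction, and members of lists written by hand. Members and lists were chosen with earlier results of these data known. Annotation was GENCODE M21 and promoters were from RefSeq. Alternatives were DESeq2 1.42.0, RLE factors, no count filter, replicate number as a term or no library term, a threshold of 0.05, doublets or cells over 20% mitochondrial UMIs removed, a rule sum of 5 UMIs, Gpr17 at 0, cells thinned to 2000 UMIs (1000 for shares) and each library left out. After seeing the data, leaving out cycling and Neurod1-positive OPCs, and leaving out astrocytes with ependymal genes, were added. The code was tested on simulated data.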

Additional observations from a re-analysis of the deposited data

Results flagged for a closer look

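A test of the difference itself, the interaction of class and genotype in edgeR, picked out 18 results at an adjusted p under 0.01. Values are differences of log2 fold changes, OPCs minus the other class.

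Against mature oligodendrocytes the values were -1.38 for Mt3, -1.76 for Sparcl1, -3.29 for Hbb-bs, -1.98 for Tubb2b, -2.09 for Fabp7, -5.73 for Nkain4, -1.46 for Ptprz1 and -1.01 for Slc1a2, and 1.36 for Mbp. Nkain4 had 0 UMIs in mature oligodendrocytes of both WT libraries (9.80 and 6.24 CPM in Dp(10)2Yey), so its value depends on the prior count and is no bound. Tubb2b stood at 1.92 and 10.4 CPM in WT and 72.7 and 13.1 in Dp(10)2Yey there and Fabp7 at 5.76 and 4.90 CPM in WT and 40 and 8.11 in Dp(10)2Yey.

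Against astrocytes the values were 3.60 for Ly6e, 3.44 for Slc4a10, 4.18 for Tmeff2, 1.92 for Slc38a2, 4.66 for Slc26a2, 2.92 for Abcg2 and 1.52 for Tspan13, -3.19 for Hbb-bs and -4.54 for Hba-a1. Ly6e stood at 3.68 and 268 CPM in WT and 2.14 and 18.9 in Dp(10)2Yey in astrocytes and at 98.2 and 66.8 CPM in WT and 58.9 and 74.1 in Dp(10)2Yey in OPCs. Hba-a1 stood at 90 and 5.57 CPM in WT and 6.93 and 21.5 in Dp(10)2Yey in OPCs and at 0 and 4.84 CPM in WT and 6.41 and 75.7 in Dp(10)2Yey in astrocytes. The causes were not tested.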

How the results depend on the processing

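With 2 mice per genotype, shares of cells cannot reach an exact p under 0.33, and leaving out a mouse leaves 1 library in a group. OPC sums were smallest in WT replicate 1. Free RNA was not estimated, and empty barcodes were not used here. The cause of each dependence was not tested.

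Genotype calls in OPCs ranged from 0 to 10 with each library left out, and the segment median of 0.70 from 0.56 to 0.79. That median was 0.63 with a rule sum of 5 UMIs, 0.59 with Gpr17 at 0 and 0.60 after thinning. The difference in OPC share ranged from -0.193 to 1.03 points and that in cycling share from -0.107 to 7.39.

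Replicate block: with the replicate number as a term there were 0 genotype calls and the segment median was 0.70. The labels do not tie a replicate number to a preparation day, so the day of each library is not known here. Deviations of same-numbered libraries from their genotype means correlated at 0.101 across 6351 genes, and at 0.128 across the 3176 genes of higher level; genes are not independent replicates.

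The sign of small genotype log2 fold changes turned in some settings. With a library left out they ranged from -0.070 to 0.32 for Pcnt, from -0.73 to 0.043 for Mcm3ap, from -0.45 to 0.55 for Adarb1, from -0.0061 to 0.62 for Trappc10, from -0.37 to 0.14 for Cspg4, from -0.0033 to 0.13 for C1ql1 and from -0.23 to 0.019 for Tnr. The opposite sign came without WT replicate 1 for Pcnt and Cspg4 (0.042), without WT replicate 2 for Adarb1 and C1ql1, without Dp(10)2Yey replicate 1 for Trappc10 and without Dp(10)2Yey replicate 2 for Mcm3ap, Adarb1 (-0.38), Cspg4 and Tnr. With Gpr17 at 0, Trappc10 was -0.092, Pdgfra 0.044 and Tnr 0.036, and after thinning Tnr was 0.066.

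Calls against Gpr17-positive cells numbered 230 in all, and 361 at an adjusted p under 0.05, 67 by DESeq2, 135 with no library term, 137 with Gpr17 at 0, 36 after thinning and 115 to 242 with a library left out. Against mature oligodendrocytes they were 2397 with Gpr17 at 0, 1929 after thinning and 3173 to 4304 with a library left out. Against astrocytes they were 1994 by DESeq2, 1871 with Gpr17 at 0, 1608 after thinning and 2462 to 3168 with a library left out.

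Interaction calls against mature oligodendrocytes were 2 with doublets removed and 0 to 9 with a library left out. Against astrocytes they were 5 without ependymal-gene astrocytes, a setting chosen after seeing the data, and 2 to 13 with a library left out.

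With a library left out, interaction values against astrocytes ranged from -2.18 to 5.60 for Ly6e, from -0.12 to 5.54 for Slc4a10, from -4.36 to 5.23 for Tmeff2, from -0.94 to 3.28 for Slc38a2 and from -6.02 to 4.17 for Abcg2, each lowest without WT replicate 2.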
